A study of Mus musculus with 30 samples.

Results

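NRF2, the transcription factor encoded by Nfe2l2, controls a set of antioxidant and detoxification genes, and 47 listed regulators and targets of that pathway were followed here in medullary thymic epithelial cells (mTECs), the thymic cells that display proteins of other tissues to developing T cells. The genes were taken by name from a list of the pathway. That list was drawn up with earlier results of these data known. All 47 were found, among 55011 genes in the count files of mTEChi, the mature mTECs that carry high levels of MHC class II, and among 35999 gene symbols in the files of Aire-GFP+ mTECs. All 47 also passed the filter on low counts in both tables, which left 18418 mTEChi genes and 17923 Aire-GFP+ genes.

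Each library held the RNA of 1000 sorted cells from female mice aged 4 to 6 weeks. All were of strain C57BL/6J (B6). The mTEChi came in 8 groups of 2 libraries. Foxn1-cre Nfe2l2 fl/fl mice (flox) were set against Foxn1-cre Nfe2l2+/+ mice (wt). Both of these groups carry Foxn1-cre, a Cre recombinase active in thymic epithelial cells, and were untreated. Topotecan, an inhibitor of DNA topoisomerase I, was set against its vehicle DMSO in WT mice. Spermidine, a polyamine, was set against PBS in Aire-KO mice and in WT mice, all by intraperitoneal injection, which gives 4 Aire-KO and 4 WT libraries. The second sort comprised Aire-GFP+ mTECs of untreated mice, with 2 Aire-KO and 3 WT libraries. Aire is the transcriptional regulator through which mTECs express genes of other tissues. Doses, treatment times and the structure of the targeted alleles are not stated in the sources used here. Nothing in the labels ties libraries of a group to separate animals, so p-values measure the spread between libraries, which may be technical.

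In most cells NRF2 is held at a low level by KEAP1, an adaptor that presents it to a ubiquitin ligase. Electrophiles and oxidants disable KEAP1, and NRF2 then pairs with a small MAF protein at antioxidant response elements (AREs) to raise its targets. SQSTM1, an autophagy receptor, can sequester KEAP1. Targets make and use glutathione, run the thioredoxin system, reduce quinones and carbonyls, supply NADPH, handle heme and iron, and export conjugates.

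Levels are CPM, read counts scaled to library size, after TMM scaling, a correction for differences in RNA composition, and a gene is called when its p-value from edgeR, adjusted over all genes tested, is below 0.05. Library depth was 2.03 to 5.72 M counts in mTEChi and 6.58 to 12.61 M in Aire-GFP+ cells, and intervals on single counts cover counting error only. The 10 mTEC markers, among them Epcam and Krt5, summed to 17490 to 57110 CPM over all 21 libraries, and the 8 thymocyte markers to 22.4 to 323 CPM. Aire itself read 4096 to 5075 CPM in Aire-KO mTEChi and 1621 to 1814 CPM in WT mTEChi of the same experiment, and 1508 and 1774 CPM in Aire-KO Aire-GFP+ cells against 1603 to 1686 CPM in WT. Counts over a whole gene therefore do not check the Aire-KO labels, since an allele disrupted at a few exons can still be transcribed.

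In the 6 untreated or vehicle-treated control libraries of mTEChi (2 Nfe2l2 wt, 2 DMSO and 2 WT PBS), levels per length of exon ranged from 0.948 to 829.5 CPM per kb. The ferritin light chain gene Ftl1, which encodes an iron storage subunit, led with a level of 829.5 CPM per kb. It was followed by Txn1 (thioredoxin) at 638.7, the ferritin heavy chain Fth1 at 308.8, Sqstm1 at 189.7 and the peroxiredoxin Prdx1 at 144.5 CPM per kb. Nfe2l2 itself stood at 23.2 CPM per kb and Keap1 at 14.8. The lowest levels were those of Gclm, the modifier subunit of the enzyme that starts glutathione synthesis, at 0.948 CPM per kb, and of the aldehyde oxidase Aox1 at 1.18. In Aire-GFP+ WT cells, on the authors' TPM scale, the order began with Ftl1 at 4416 ± 277, Fth1 at 1235 ± 70.8, Txn1 at 1030.0 ± 104 and Prdx1 at 987 ± 77.8 TPM (SD, n = 3). The mTEChi and Aire-GFP+ values come from different scales and are not compared.

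The members differed widely in how much they varied among those 6 control libraries, which belong to 3 experiments. The highest library over the lowest gave a median ratio of 2.10 over the 47 genes, with 22 genes under 2 and 11 over 3. Fth1 (1.17) and Nfe2l2 (1.197) were among the steadiest. Gstm3, a mu-class glutathione transferase, was the most variable at 14.9, with 7.74 CPM in DMSO replicate 1 and 116 CPM in Nfe2l2 wt replicate 1, followed by the microsomal transferase Mgst2 at 8.57 and Gclm at 4.24. The lowest library was one of the 2 DMSO libraries for many genes, Nqo1, Srxn1, Gpx2 and Hmox1 among them, so experiments are compared below only within themselves.

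Promoter windows (250 bases before to 50 bases after the annotated start, RefSeq, GRCm38.p6) were at hand for 41 of the 47 genes. The core of the ARE, TGANNNNGC read on both strands, occurred in the windows of 26 of the 41 (63.4%), against 12174 of 27025 genes (45%). A stricter form, TGACNNNGC, whose matches all belong to the first form too, occurred in 14 of the 41 (34.1%), against 3781 of 27025 (14%). The windows of 4 genes are shown as examples that hold a match from the genes called in both Aire comparisons described below, in which Srxn1 (sulfiredoxin, which repairs over-oxidized peroxiredoxins) and Me1 (malic enzyme, an NADPH source) were higher and Gstm3 and Gpx2 (an epithelial glutathione peroxidase) were lower in both sorts of Aire-KO cells. Capitals mark matches to TGANNNNGC on either strand. The Srxn1 window (chr2:152105274-152105573, plus strand) holds 4 matches. The Me1 window (chr9:86695865-86696164, minus strand) holds 1, TGACTCAGC, which begins 6 bases before the start site; a second annotated Me1 window holds none. The Gstm3 window (chr3:107969125-107969424, minus strand) holds 2 and the Gpx2 window (chr12:76795505-76795804, minus strand) holds 1, and none of these 3 matches is of the stricter form.
Srxn1: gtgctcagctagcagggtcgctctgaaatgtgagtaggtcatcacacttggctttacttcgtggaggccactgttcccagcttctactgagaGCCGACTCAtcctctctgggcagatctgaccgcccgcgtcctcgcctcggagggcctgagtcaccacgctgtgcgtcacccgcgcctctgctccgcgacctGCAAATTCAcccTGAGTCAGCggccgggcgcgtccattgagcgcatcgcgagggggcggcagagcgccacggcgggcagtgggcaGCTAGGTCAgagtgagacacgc
Me1: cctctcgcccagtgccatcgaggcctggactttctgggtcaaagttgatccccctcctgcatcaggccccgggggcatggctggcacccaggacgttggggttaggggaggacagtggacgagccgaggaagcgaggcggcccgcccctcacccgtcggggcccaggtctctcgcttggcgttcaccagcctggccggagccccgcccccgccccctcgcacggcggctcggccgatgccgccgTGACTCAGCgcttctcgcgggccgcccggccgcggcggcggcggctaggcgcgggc
Gstm3: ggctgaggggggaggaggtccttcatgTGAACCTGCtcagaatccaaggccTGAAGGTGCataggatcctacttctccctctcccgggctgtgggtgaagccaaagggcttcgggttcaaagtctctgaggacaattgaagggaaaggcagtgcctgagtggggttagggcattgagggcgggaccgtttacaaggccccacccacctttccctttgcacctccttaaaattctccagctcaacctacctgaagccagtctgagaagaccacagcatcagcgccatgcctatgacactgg
Gpx2: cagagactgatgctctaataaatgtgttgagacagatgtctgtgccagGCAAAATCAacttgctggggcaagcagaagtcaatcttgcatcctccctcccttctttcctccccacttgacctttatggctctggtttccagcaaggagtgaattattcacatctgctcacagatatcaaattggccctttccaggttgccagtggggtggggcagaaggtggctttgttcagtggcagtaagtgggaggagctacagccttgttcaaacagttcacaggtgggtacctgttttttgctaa

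A match is a description of the letters and not a binding site. Of the genes called lower in both sorts of Aire-KO cells, 3 of the 7 with a window held a match (Gstm3, Gpx2 and Osgin1), and of those called higher in both, 4 of 7 did (Mafg, Srxn1, Tkt and Me1). The windows of Nqo1 and Ftl1, also called higher in both, hold none. Matches outside these windows were not searched.

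The first comparison asked how the pathway stood in mTEChi whose Nfe2l2 gene is floxed in Foxn1-cre mice. None of the 47 genes was called in flox against wt cells. Of the canonical targets, the groups overlapped for Gclc, Hmox1, Txnrd1 and Srxn1, while both flox libraries lay below both wt libraries for Nqo1 and Gclm. With 2 libraries per group, a gene can separate readily without a true difference. How many of all genes separated was not counted, so the order of these libraries is description only. The background was equally empty: 0 of 18418 genes (0%) were called, and 973 (5.28%) had an unadjusted p below 0.05. DESeq2 called 13 genes higher and 13 lower, none of them among the 47, and limma-voom called 0. The median log2 change of the 47 was 0.01, against -0.01 over all genes, and their changes ran from -1.36 (Gpx2) to 1.54 (Mgst2).

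Nfe2l2 had 106 and 86.6 CPM in flox cells, against 90.7 and 91.4 CPM in wt cells. The groups overlapped, and the log2 change was 0.07 (SE 0.146, 95% interval -0.24 to 0.39, adjusted p = 1). Gene counts sum all exons of Nfe2l2 (chr2:75675513-75704641, minus strand, GRCm38), so they do not show whether a floxed exon was removed. Keap1 had 91.5 and 85.2 CPM in flox cells, against 63.3 and 84.9 CPM in wt cells, a log2 change of 0.25 (SE 0.195, interval -0.16 to 0.67). Its flox libraries both lay above its wt libraries, by less than 1 CPM at the nearest pair. The small MAF genes Mafg (-0.20) and Maff (0.05) and Sqstm1 (0.06) had log2 changes whose intervals included 0.

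Among the genes of glutathione, Gclc, the catalytic subunit of the enzyme that starts its synthesis, had 31.5 and 29.2 CPM in flox cells and 31.2 and 40.5 CPM in wt cells. Gclm had 4.27 and 5.48 CPM in flox cells and 6.38 and 6.51 CPM in wt cells, a log2 change of -0.40 with an interval of -1.55 to 0.76. Both Gclm libraries of flox cells were below both of wt cells, yet at these low levels the interval takes in both a halving and a gain. The 11 glutathione transferases ranged from -0.66 (Gsta1) to 1.54 (Mgst2) in log2 change. Mgst2 had 2.61 and 15.2 CPM in flox cells and 4.04 and 2.09 CPM in wt cells, so that its change rested on flox replicate 2 (interval -0.16 to 3.23, adjusted p = 0.975).

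The quinone reductase gene Nqo1, a standard readout of NRF2, had 50.2 and 40.1 CPM in flox cells, against 67.6 and 51.4 CPM in wt cells. Both flox libraries were lower, and the log2 change of -0.40 had an SE of 0.28 and an interval of -0.998 to 0.20 (adjusted p = 1). Heme oxygenase Hmox1 had 159 and 138 CPM in flox cells and 131 and 164 CPM in wt cells. Thioredoxin reductase Txnrd1 had 40.8 and 49.9 CPM in flox cells and 41.9 and 40.0 CPM in wt cells, and Srxn1 had 79.9 and 93.0 CPM in flox cells and 67.2 and 110.3 CPM in wt cells. These 3 genes overlapped between the groups, with log2 changes of 0.01, 0.15 and -0.04.

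Unadjusted p-values below 0.05 were found for 4 of the 47 genes (8.51%), against 5.28% of all genes, and none held after adjustment. Gpx2 had 13.3 and 19.97 CPM in flox cells, against 37.6 and 48.2 CPM in wt cells, the lowest log2 change of the list at -1.36 (SE 0.474, interval -2.37 to -0.34, adjusted p = 0.791). Prdx6, a peroxiredoxin that also acts on phospholipids, had 308 and 233 CPM in flox cells and 214 and 197 CPM in wt cells (log2 change 0.40, adjusted p = 0.863). The biliverdin reductase Blvrb had 10.2 and 12.9 CPM in flox cells and 24.9 and 14.7 CPM in wt cells (log2 change -0.77, adjusted p = 0.88). Txn1 had 751 and 749.5 CPM in flox cells and 882 and 898 CPM in wt cells (log2 change -0.25, adjusted p = 0.922). The libraries of the groups did not overlap in these 4 genes. As the genes were picked by p-value in the same libraries, this separation adds no support. In no alternative fit was any of these 4 genes called.

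The intervals say which sizes of change the 4 libraries can speak to. For 29 of the 47 genes the 95% interval lay within 2-fold in either direction, and for 37 it lay above a halving. The 10 whose interval reached a halving were Gclm, Gsr, Gsta1, Gsta3, Gsta4, Gstm3, Gpx2, Cbr3, Blvrb and Osgin1, while that of Nqo1 stopped just short of it, and the median width of the interval to either side was 0.60 on the log2 scale. Several of the 12 marker sums did not overlap between the groups, although no marker was called. With 2 libraries per group, sums can separate readily without a true difference, and how often other gene sets separate was not counted. Erythroid markers summed to 80.1 to 127 CPM in flox cells against 232 to 298 CPM in wt cells (6 genes). Tuft cell markers summed to 322 to 355 against 483 to 519 CPM (7 genes). Microfold cell markers summed to 1027 to 1070 against 1306 to 2091 CPM (5 genes). Macrophage markers summed to 1233 to 1353 CPM in flox cells against 1514 to 1547 CPM in wt cells (9 genes), and thymocyte markers to 59.2 to 78.9 against 100.3 to 117 CPM (8 genes). Higher sums in flox cells were those of the 4 markers of mTEClo, the less mature mTECs, at 706 to 800 CPM against 534 to 545 CPM in wt cells, with Ccl21a at 0 in 3 of the 4 libraries, and of the 10 mTEC markers at 40430 to 40730 against 37030 to 37930 CPM. The part of these cells in the members' values, Gpx2 and Blvrb among them, was not tested. In bulk samples such as these, fewer cells of a type and less RNA per cell cannot be told apart.

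**Figure D1:**
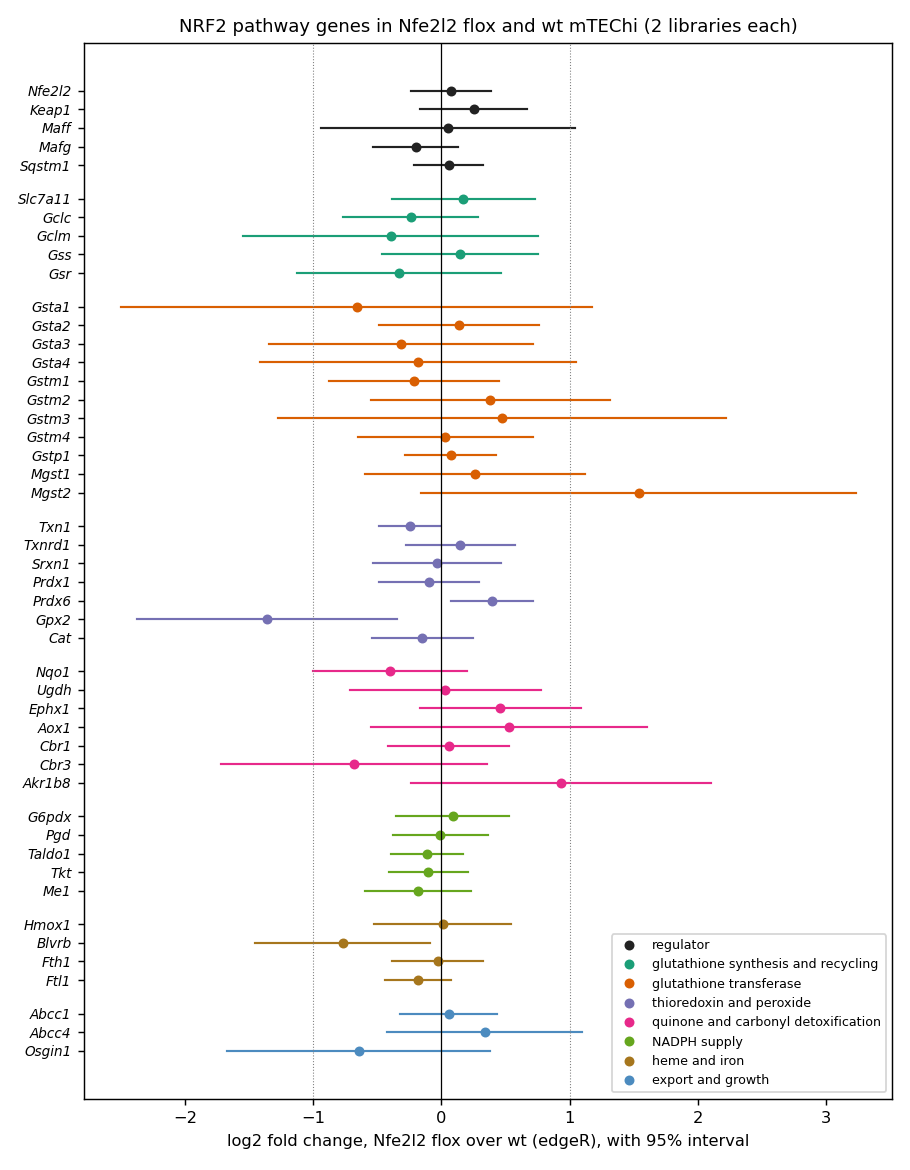
Log2 fold change of each of the 47 genes in Nfe2l2 flox over wt mTEChi (x axis), with its 95% interval derived from the edgeR test. Genes are grouped and coloured by role, with 2 libraries per group, and dotted lines mark 2-fold changes. Points sit on both sides of 0 with a median of 0.01, and the interval of Nfe2l2 itself runs from -0.24 to 0.39.

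**Figure D2:**
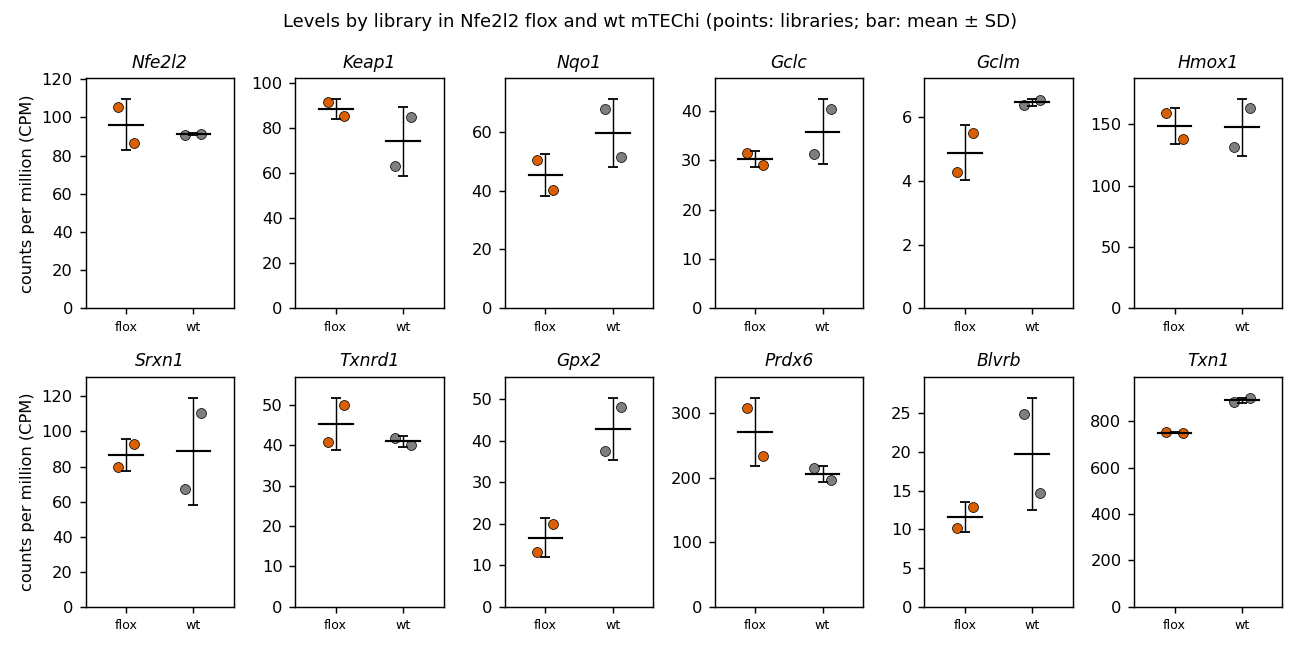
CPM (y axis, from 0) of 12 genes in each library of Nfe2l2 flox (left, orange) and wt (right, grey) mTEChi; the bar is the mean and the error bar the SD of 2 libraries. Nfe2l2, Gclc, Hmox1, Srxn1 and Txnrd1 overlap between the groups, and Gpx2, at 13.3 and 19.97 CPM in flox cells against 37.6 and 48.2 CPM in wt cells, shows the widest gap as a ratio.

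The second comparison asked how the pathway stood in mTEChi without Aire. Of the 47 genes 26 (55.3%) were called in 4 Aire-KO against 4 WT libraries, 11 higher and 15 lower, against 22.8% of all genes (10.3% higher and 12.5% lower; 35.1% had an unadjusted p below 0.05). Glutathione transferases fell: 7 of 11 were called lower, Gstm3 by 122-fold in counts, and 0 higher. Among the genes that rose were Ftl1 of iron storage, at 2.21-fold, and Tkt, listed under NADPH supply, at 2.10-fold. Nfe2l2 was not called, and Nqo1 rose while Hmox1 fell, so that targets of the pathway moved in both directions. With library totals in place of TMM scaling the split was 6 higher and 19 lower, beside 1167 higher and 3222 lower over all genes, and the median of all genes moved to -0.23 (-0.05 with TMM); no called member changed sign, and Mafg, Txn1, Txnrd1, Srxn1 and Abcc1 were then not called. The median log2 change of the 47 was -0.22.

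Among the regulators, Nfe2l2 averaged 78.6 ± 7.44 CPM in Aire-KO cells and 80.5 ± 2.42 CPM in WT cells (SD, n = 4 each), a log2 change of -0.03 (interval -0.27 to 0.20). Values below are given in the order PBS replicates 1 and 2, then spermidine replicates 1 and 2. Where called genes are said not to overlap, here and in the Aire-GFP+ comparison, this only describes the values. It adds no support, since the genes were picked by p-value in the same libraries. How many of all genes separate was not counted. Keap1 had 125, 91.2, 131 and 129 CPM in Aire-KO cells, against 75.0, 65.98, 70.5 and 76.7 CPM in WT cells. All Aire-KO libraries lay above all WT libraries, at a log2 change of 0.72 (SE 0.143, adjusted p = 0.00252). Sqstm1 had 1081, 1131, 1080.0 and 1127 CPM in Aire-KO cells, against 709.7, 746, 738 and 703 CPM in WT cells, also without overlap (log2 change 0.61, SE 0.0902, adjusted p = 0.000272). Mafg was the third regulator called higher (0.36), and Maff was not called (0.09).

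In glutathione synthesis, Gclc and glutathione synthetase Gss were called lower at 1.54-fold and 1.65-fold, and none of the 5 genes was called higher. Slc7a11, the cystine transporter, Gclm and glutathione reductase Gsr were not called. The transferases, which join glutathione to electrophiles, held the largest changes. Gstm3 had 0, 0.346, 0 and 1.04 CPM in Aire-KO cells, against 24.8, 76.7, 25.9 and 42.5 CPM in WT cells. This amounts to 3 counts in 4 Aire-KO libraries against 396 in 4 WT libraries, a 122-fold lower level per TMM-scaled library size with a counting interval of 41.4 to 594 (adjusted p = 0.00168). With limma-voom the call was lost (log2 change -6.41, adjusted p = 0.152). Gsta1 was nearly as sparse, with 3 counts in Aire-KO libraries against 34 in WT libraries, 10.5-fold lower with a counting interval of 3.29 to 53.3 (adjusted p = 0.0111).

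Gstm2 had 2.60, 3.46, 2.43 and 3.62 CPM in Aire-KO cells, against 17.5, 32.0, 15.6 and 9.20 CPM in WT cells (log2 change -2.51, SE 0.405, adjusted p = 0.000497). Gsta2 had 39.5, 28.3, 11.7 and 18.6 CPM in Aire-KO cells, against 83.0, 81.5, 80.4 and 74.1 CPM in WT cells, a 3.53-fold lower level (SE of the log2 change 0.239, adjusted p = 0.000103). Gstm1, the most abundant transferase, had 36.0, 94.7, 46.6 and 69.4 CPM in Aire-KO cells, against 172, 221, 154 and 217 CPM in WT cells, 3.08-fold lower (adjusted p = 0.000266). In these 3 genes every Aire-KO library lay below every WT library. Gsta4 had 14.3, 48.0, 41.3 and 12.4 CPM in Aire-KO cells and 76.8, 71.8, 100.2 and 102.5 CPM in WT cells (2.96-fold lower, adjusted p = 0.0262). Gsta3 had 3.04, 7.95, 3.88 and 3.62 CPM in Aire-KO cells and 9.10, 13.1, 15.9 and 11.4 CPM in WT cells (2.67-fold lower, adjusted p = 0.0168). Both are alpha-class transferases, and their groups did not overlap either. Of the other 4 transferases, Gstm4, Gstp1, Mgst1 and Mgst2, none was called, and Gstp1 had a log2 change of 0.12 (interval -0.15 to 0.38). Sequence-similar transferases can share reads, and the sum of Gsta1 and Gsta2 (log2 change -1.85) and that of the mu-class genes (-1.68) were also lower.

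Peroxide and thioredoxin genes divided. Gpx2 had 2.17, 3.46, 6.31 and 1.55 CPM in Aire-KO cells, against 17.5, 23.3, 57.4 and 21.03 CPM in WT cells, without overlap (log2 change -3.05, SE 0.429, adjusted p = 0.000178). Prdx6 was also called lower (-0.42). Txn1 (0.39), Txnrd1 (0.58) and Srxn1 (0.55) were called higher in log2 terms. Srxn1 had 94.6, 63.9, 72.9 and 77.1 CPM in Aire-KO cells and 56.1, 47.1, 55.6 and 51.3 CPM in WT cells. Catalase (Cat) missed the threshold with an adjusted p of 0.052, its 4 Aire-KO libraries above its 4 WT libraries.

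Among the enzymes of quinones and carbonyls, Nqo1 had 49.0, 52.9, 60.7 and 49.2 CPM in Aire-KO cells, against 35.7, 28.1, 31.9 and 26.3 CPM in WT cells, without overlap (1.73-fold higher, SE of the log2 change 0.213, adjusted p = 0.0156). The epoxide hydrolase Ephx1 had 11.3, 13.5, 15.1 and 8.80 CPM in Aire-KO cells, against 21.9, 24.7, 28.3 and 27.2 CPM in WT cells (2.08-fold lower, adjusted p = 0.00576). The carbonyl reductase Cbr1 was 1.98-fold lower (adjusted p = 0.00113). Nqo1 and these 2 enzymes therefore went opposite ways within a role.

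Transketolase (Tkt) is listed under NADPH supply. It had 1954, 1940, 1688 and 1804 CPM in Aire-KO cells, against 758, 896, 939 and 917 CPM in WT cells. Me1 had 275, 257, 270 and 269 CPM in Aire-KO cells, against 179.9, 149.9, 184 and 187 CPM in WT cells. Both rose without overlap, Tkt at a log2 change of 1.07 (SE 0.103, adjusted p = 7.34e-06) and Me1 at 0.61 (adjusted p = 0.00574), while G6pdx and Pgd, of the oxidative pentose phosphate pathway, and Taldo1 were not called. Ftl1 had 2422, 2408, 2173 and 2157 CPM in Aire-KO cells, against 935, 1120, 1017 and 1064 CPM in WT cells, the largest rise of the list (log2 change 1.15, SE 0.0863, adjusted p = 1.3e-06). Its partner Fth1 was not called and lay on the other side of 0 (-0.32, adjusted p = 0.0653).

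Hmox1 had 74.2, 94.3, 84.0 and 115.5 CPM in Aire-KO cells and 119, 163, 164 and 92.0 CPM in WT cells, with overlap (log2 change -0.55, adjusted p = 0.0455). Osgin1, an oxidative stress-induced growth inhibitor, had 9.98, 8.98, 10.2 and 10.4 CPM in Aire-KO cells, against 43.3, 20.4, 31.5 and 25.4 CPM in WT cells (3.06-fold lower, adjusted p = 0.00651). The exporter Abcc1 was called higher (0.47), and Abcc4 was not called.

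Within each treatment, where 2 Aire-KO libraries face 2 WT libraries, 6 genes were called higher and 8 lower with PBS, where 10.3% of all genes were called (5.21% higher and 5.08% lower; 25.1% had an unadjusted p below 0.05). With spermidine 4 were called higher and 6 lower, against 9.11% of all genes (4.77% higher and 4.34% lower; 23.6% unadjusted). Sqstm1, Tkt and Ftl1 rose and Gsta2, Gstm1, Gstm2, Gpx2 and Cbr1 fell in both. In the joint comparison 15 of the 26 calls held without any single library. Each of the other 11 was lost without 3 or more of the 8 libraries, controls among them: Srxn1 without 7, Mafg and Gss without 6, Gclc, Gsta3, Gsta4 and Hmox1 without 5, Nqo1 and Abcc1 without 4, and Txnrd1 and Prdx6 without 3. Their highest adjusted p-values were 0.146 for Mafg without Aire-KO PBS replicate 2, 0.0705 for Gsta3 and 0.175 for Srxn1 without Aire-KO PBS replicate 1, 0.123 for Gss, 0.0712 for Prdx6 and 0.066 for Nqo1 without Aire-KO spermidine replicate 1, 0.126 for Gclc and 0.108 for Gsta4 without Aire-KO spermidine replicate 2, and 0.0691 for Txnrd1, 0.272 for Hmox1 and 0.0725 for Abcc1 without WT spermidine replicate 1.

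Markers of tissue-mimicking mTECs moved in the same libraries. The 7 enterohepatocyte markers summed to 436 to 654 CPM in Aire-KO cells against 1345 to 2804 CPM in WT cells, with 6 of 7 called lower and Hnf4a at 0 in Aire-KO PBS replicate 1. The 7 tuft cell markers summed to 245 to 399 CPM in Aire-KO cells against 482 to 1001 CPM in WT cells (6 of 7 lower), and the 5 microfold markers to 600 to 820 CPM against 1297 to 1460 CPM (2 of 5 lower). The 10 mTEC markers summed to 49590 to 52680 CPM in Aire-KO cells against 27580 to 29850 CPM in WT cells (6 higher, 2 lower). The 5 markers of cTECs, the cortical thymic epithelial cells, summed to 1057 to 1296 CPM in Aire-KO cells against 538 to 796 CPM in WT cells (1 higher, 1 lower), and the mTEClo markers to 391 to 454 CPM against 565 to 738 CPM (1 lower). Their part in the changes of the transferases, Gpx2 and the genes that rose was not tested.

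The third comparison set the same genotypes side by side in Aire-GFP+ mTECs of B6 mice, a different sort counted with another tool. Of the 47 genes 27 (57.4%) were called, 14 higher and 13 lower, against 41.3% of all genes (19% higher and 22.3% lower; 50.5% had an unadjusted p below 0.05). Gstm3 and Gpx2 fell to traces, and Ftl1, Me1, Srxn1 and Nqo1 rose by more than 2-fold. Scaling mattered here: with library totals the split was 6 higher and 18 lower, beside 1591 higher and 6250 lower over all genes, whose median moved to -0.51 (-0.12 with TMM), and Taldo1 and Abcc1 changed sign. The 6 were Gsr, Gstp1, Srxn1, Nqo1, Me1 and Ftl1, so that Maff, Mafg, Gclm, Txn1, Taldo1, Tkt, Abcc1 and Abcc4 were not called with library totals, while all 13 lower calls were also made with library totals. On log2(TPM + 1) values limma called 5 higher and 21 lower, beside 1106 higher and 5156 lower of 16443 genes tested.

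Nfe2l2 had 71.2 and 64.6 CPM in Aire-KO cells, against 56.0, 53.0 and 54.9 CPM in WT cells. The Aire-KO libraries were higher, and the log2 change of 0.31 (SE 0.13) missed the threshold with an adjusted p of 0.0855. Its sign turned with library totals (-0.08) and on the TPM scale (-0.14). Keap1 was not called (0.20), and its sign turned likewise (-0.20 and -0.44). Maff had 13.5 and 10.9 CPM in Aire-KO cells and 6.77, 5.47 and 5.20 CPM in WT cells (2.10-fold higher, adjusted p = 0.0233), and Mafg was called higher (0.56).

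Glutathione genes split within their role. Glutathione reductase Gsr had 35.0 and 32.6 CPM in Aire-KO cells, against 15.6, 14.5 and 9.83 CPM in WT cells (log2 change 1.35, SE 0.234, adjusted p = 0.00288). Gclm had 19.4 and 25.1 CPM in Aire-KO cells, against 11.3, 12.5 and 10.02 CPM in WT cells (0.98, adjusted p = 0.0108). Gss had 25.8 and 22.2 CPM in Aire-KO cells, against 38.7, 54.4 and 38.7 CPM in WT cells (-0.87, adjusted p = 0.0113). Each gene was without overlap between the groups, which again adds no support to genes picked by p-value. The call of Gclm was lost with library totals (0.58, adjusted p = 0.0759) and on log2(TPM + 1) values (0.16, adjusted p = 0.724).

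Of the 11 transferases 5 were called lower and 1 higher. Gstm3 had 0 and 0.757 CPM in Aire-KO cells, against 134, 131 and 91.8 CPM in WT cells. In counts this is 8 in 2 Aire-KO libraries against 3422 in 3 WT libraries, 278-fold lower per TMM-scaled library size with a counting interval of 141 to 644 (adjusted p = 4.01e-05). Gstm2 had 11.8 and 8.99 CPM in Aire-KO cells, against 44.9, 41.1 and 30.7 CPM in WT cells (log2 change -1.91, adjusted p = 0.000705). Gsta2 had 64.6 and 83.8 CPM in Aire-KO cells, against 110.5, 170 and 156 CPM in WT cells (-0.97, adjusted p = 0.00687). Gstm1 had 178 and 199.6 CPM in Aire-KO cells, against 319, 330.3 and 331 CPM in WT cells (-0.79, adjusted p = 0.000783). Gstp1, the pi-class transferase, went the other way, with 163 and 161 CPM in Aire-KO cells against 98.4, 84.3 and 99.4 CPM in WT cells (0.79, adjusted p = 0.00161). No library of these genes crossed between the groups, and Gstm4 was the fifth called lower (-0.68).

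In the peroxide and thioredoxin group, Gpx2 had 0.238 and 1.51 CPM in Aire-KO cells, against 26.8, 30.3 and 43.6 CPM in WT cells. With 18 counts in Aire-KO libraries against 999 in WT libraries, it was 36.1-fold lower per TMM-scaled library size, with a counting interval of 22.7 to 61.1 (adjusted p = 0.000272). Srxn1 had 166 and 171 CPM in Aire-KO cells, against 64.7, 72.8 and 74.3 CPM in WT cells (log2 change 1.25, SE 0.117, adjusted p = 0.000191). Txnrd1 had 17.1 and 9.75 CPM in Aire-KO cells and 20.5, 23.9 and 25.2 CPM in WT cells (-0.79, adjusted p = 0.048). Txn1 was called higher (0.51), and its sign was not kept on the TPM scale (-0.014).

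Nqo1 had 119.5 and 115 CPM in Aire-KO cells, against 55.4, 49.6 and 48.9 CPM in WT cells (log2 change 1.19, SE 0.125, adjusted p = 0.000298). Among the other carbonyl enzymes the aldo-keto reductase Akr1b8 had 3.69 and 4.16 CPM in Aire-KO cells and 7.05, 12.8 and 13.5 CPM in WT cells (-1.50, adjusted p = 0.0163). Aox1 had 4.40 and 3.31 CPM in Aire-KO cells and 10.5, 7.76 and 7.46 CPM in WT cells (-1.15, adjusted p = 0.0383). Ephx1 and Cbr1, which fell in mTEChi, were not called here (-0.34 and 0.36 in log2 terms).

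Me1 had 376 and 448 CPM in Aire-KO cells, against 156, 173 and 144 CPM in WT cells (log2 change 1.39, adjusted p = 0.00016). Tkt had 1322 and 1573 CPM in Aire-KO cells, against 958, 978 and 937 CPM in WT cells (0.60, adjusted p = 0.00224). Me1 and Tkt, both listed under NADPH supply, were called higher, as was Taldo1 (0.39) of the same list. Pgd (-0.49) was called lower and G6pdx was not called (0.14). The call of Tkt was lost with library totals (0.20) and on log2(TPM + 1) values (0.16). Ftl1 had 7929 and 8676 CPM in Aire-KO cells, against 3156, 2697 and 2877 CPM in WT cells, again the largest rise of the list (1.51, SE 0.0901, adjusted p = 3.13e-05). Hmox1 had 45.6 and 39.9 CPM in Aire-KO cells, against 77.4, 76.4 and 60.4 CPM in WT cells (-0.74, adjusted p = 0.00857). Osgin1 had 0.476 and 1.61 CPM in Aire-KO cells, against 7.33, 5.02 and 8.03 CPM in WT cells (-2.65, adjusted p = 0.00966). Abcc4, an exporter of conjugates and cyclic nucleotides, had 29.4 and 40.3 CPM in Aire-KO cells, against 14.7, 17.5 and 19.5 CPM in WT cells (1.02, adjusted p = 0.007), and Abcc1 was called higher (0.39).

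Of these 27 calls 12 held without any single library. Gclm, Gss, Gsta2, Txn1, Hmox1 and Abcc4 were each lost without 1 library, in every case an Aire-KO one, which leaves a lone Aire-KO library assumed to vary like the WT group. Pgd and Abcc1 were lost without 2 of the 5 libraries, Mafg and Akr1b8 without 3, Maff, Gstm4, Txnrd1 and Taldo1 without 4, and Aox1 without any of the 5. The highest adjusted p-values without Aire-KO replicate 1 were 0.115 for Maff, 0.202 for Mafg, 0.0604 for Gsta2, 0.0781 for Akr1b8 and 0.109 for Pgd. Without Aire-KO replicate 2 they were 0.0877 for Gclm, 0.0858 for Gss, 0.256 for Gstm4, 0.0678 for Txn1, 0.258 for Txnrd1, 0.16 for Aox1, 0.163 for Taldo1, 0.0708 for Hmox1, 0.119 for Abcc1 and 0.0662 for Abcc4.

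Marker sums differed between these groups as well. Enterohepatocyte markers summed to 1213 to 1380 CPM in Aire-KO cells against 1930 to 2169 CPM in WT cells (5 of 7 called lower), microfold markers to 305 to 370 CPM against 759 to 926 CPM (4 of 5 lower), and tuft markers to 54.1 to 83.8 CPM against 109 to 153 CPM (3 of 7 lower). The 9 macrophage markers summed to 2221 to 2253 CPM in Aire-KO cells against 1141 to 1547 CPM in WT cells, with 2 called higher and 6 lower. The cTEC markers summed to 2341 to 2354 CPM in Aire-KO cells against 649 to 737 CPM in WT cells (2 higher, 2 lower of 5), the 6 fibroblast markers to 252 to 328 against 71.1 to 113 CPM (2 higher, 2 lower, with Col1a1 at 0 in Aire-KO replicate 1), and the mTEC markers to 55830 to 57110 against 29730 to 31830 CPM (3 higher, 3 lower of 10). The mTEClo sums were 1069 to 1098 CPM in Aire-KO cells against 684 to 981 CPM in WT cells, and the thymocyte sums 22.4 to 40.1 against 53.1 to 76.9 CPM. Erythroid markers, with 128 and 1458 CPM in the 2 Aire-KO libraries against 335 to 634 CPM in WT, marked Aire-KO libraries off from each other. The part of these cells in the members' changes was not tested.

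The mTEChi and Aire-GFP+ comparisons share no library. Of the 47 genes, 8 were called lower in both (Gss, Gsta2, Gstm1, Gstm2, Gstm3, Gpx2, Hmox1 and Osgin1), where 8.17% of the 15649 genes tested in both were, and 8 were called higher in both (Mafg, Txn1, Srxn1, Nqo1, Tkt, Me1, Ftl1 and Abcc1), against 6.87%. With library totals the first group held 12 genes, including all 8, and the second held 3 (Ftl1, Me1 and Nqo1). Txnrd1 was called higher in mTEChi and lower in Aire-GFP+ cells (0.537% of all genes), which was not the case with library totals, and each of its calls was lost without some of the libraries, and the difference between the sorts was not tested. None was called lower in mTEChi and higher in Aire-GFP+ cells (0.23% of all genes). A further 9 of the 47 (19.1%) were called in mTEChi alone, against 8.82% of all genes, and 10 (21.3%) in Aire-GFP+ cells alone, against 27.5%. The 11 called in neither were Nfe2l2, Slc7a11, Mgst1, Mgst2, Prdx1, Cat, Ugdh, Cbr3, G6pdx, Blvrb and Fth1.

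**Figure D3:**
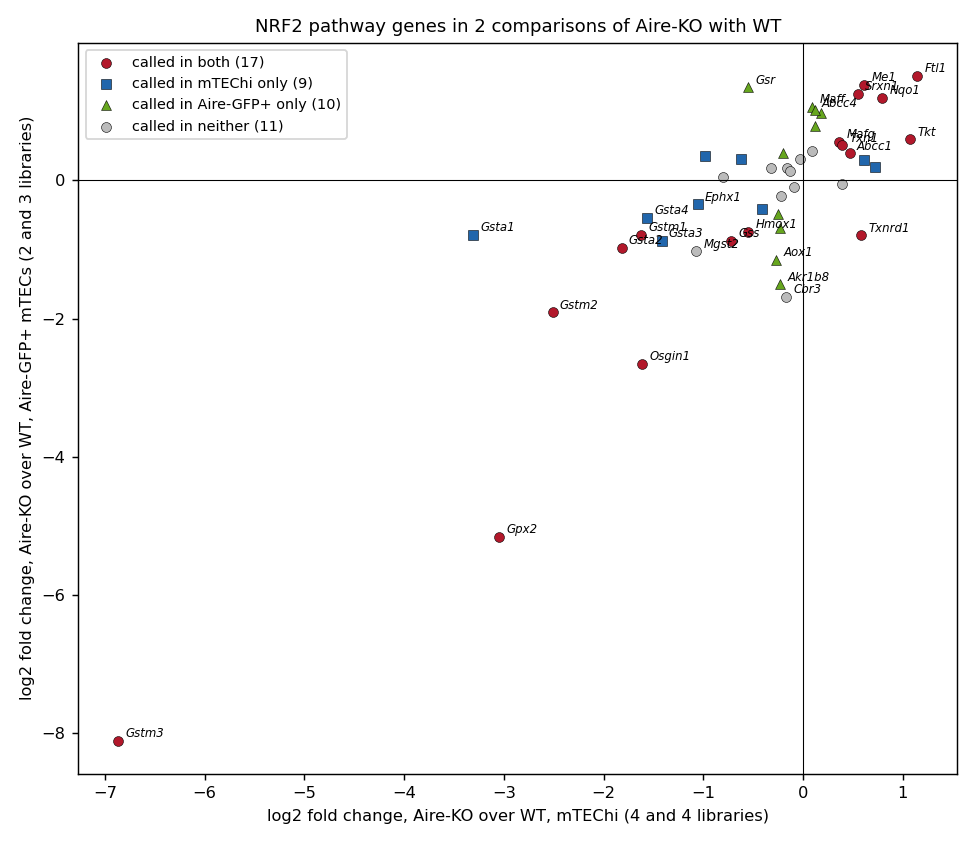
Log2 fold change of the 47 genes in Aire-KO over WT mTEChi (x axis, 4 and 4 libraries) and in Aire-KO over WT Aire-GFP+ mTECs (y axis, 2 and 3 libraries); red circles were called in both, blue squares only in mTEChi, green triangles only in Aire-GFP+ cells and grey circles in neither. Gstm3 lies at -6.87 and -8.11 and Gpx2 at -3.05 and -5.16, while Ftl1 stands at 1.15 and 1.51.

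**Figure D4:**
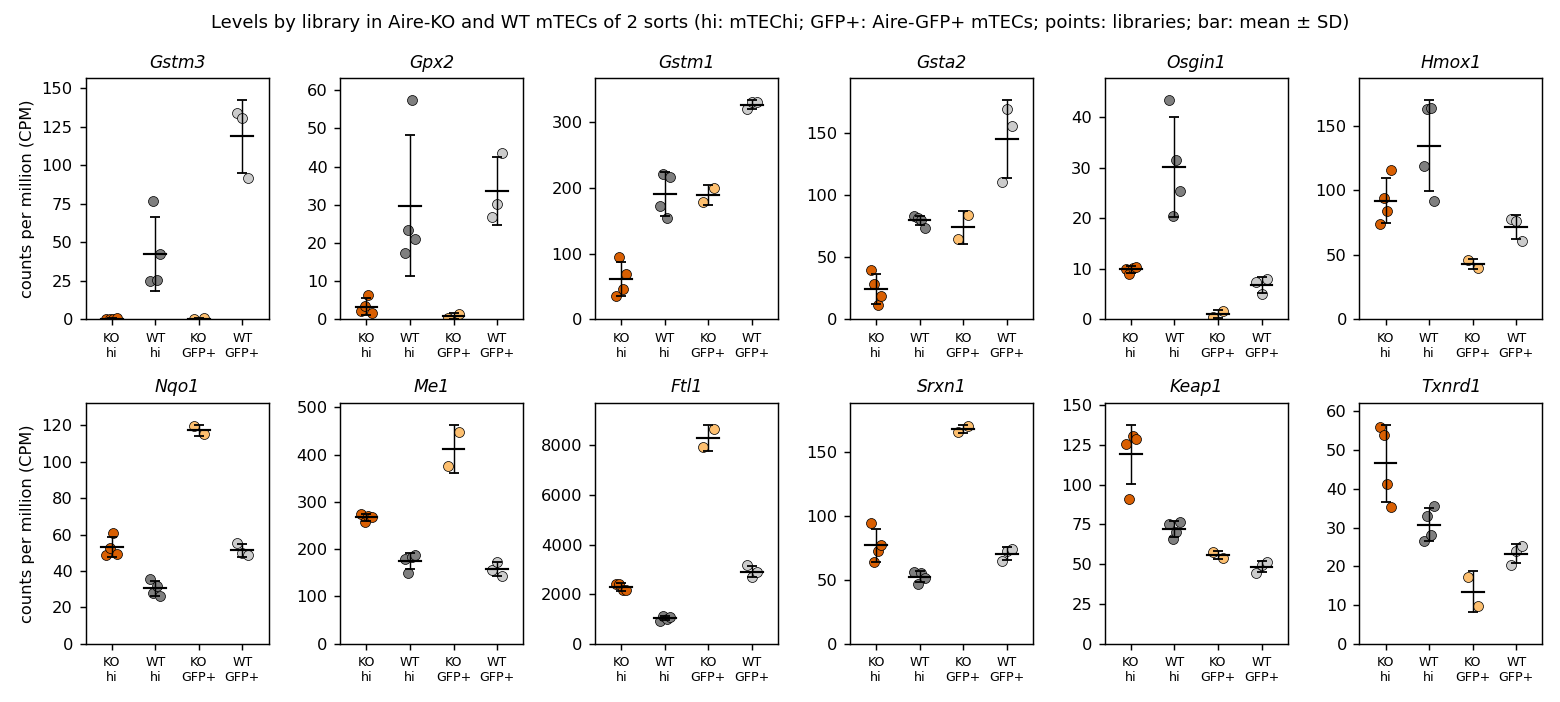
CPM (y axis, from 0) of 12 genes in each library of Aire-KO and WT mTEChi (hi, 4 and 4 libraries) and of Aire-KO and WT Aire-GFP+ mTECs (GFP+, 2 and 3 libraries); the bar is the mean and the error bar the SD. The top row holds genes called lower in both sorts and the bottom row genes called higher in at least 1; Txnrd1, at 9.75 to 17.1 CPM in Aire-KO Aire-GFP+ cells, is lower there and higher in Aire-KO mTEChi.

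A wider list of 71 other genes of redox and xenobiotic metabolism was read from the same fits. In Aire-KO against WT mTEChi 6 of the 70 tested (8.57%) were called higher and 22 (31.4%) lower, against 10.3% and 12.5% of all genes. In Aire-GFP+ cells 18 of 71 (25.4%) were called higher and 20 (28.2%) lower, against 19% and 22.3% of all genes. The largest decreases in mTEChi were those of the cytochrome P450 gene Cyp4f14 (log2 change -6.14), the transferase Gstm7 (-5.84), the glucuronosyltransferase Ugt1a6a (-3.84), the extracellular superoxide dismutase Sod3 (-2.97) and the gamma-glutamyltransferase Ggt1 (-2.53). In Aire-GFP+ cells Cyp4f14 (-7.27) and Gstm7 (-6.55) again led, with the plasma glutathione peroxidase Gpx3 (-4.49), the retinal dehydrogenase Aldh1a1 (-4.34) and the sulfotransferase Sult1a1 (-3.69). Gpx3 averaged 97.8 ± 26.2 CPM in Aire-KO mTEChi and 372.7 ± 43.0 CPM in WT mTEChi (SD, n = 4 each). Among the genes that rose, Nfe2l3, a relative of Nfe2l2, and the thioredoxin reductase Txnrd3 had log2 changes of 0.85 and 0.89 in mTEChi, and of 2.44 and 1.92 in Aire-GFP+ cells. Cul3, the scaffold of the ligase that KEAP1 serves, rose in Aire-GFP+ cells (1.37) and was not called in mTEChi (0.12). In Nfe2l2 flox against wt cells 0 of 70 were called.

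Topotecan and spermidine were then read for the same genes. Topotecan against DMSO gave no call among the 47, where 0.652% of all genes (36 or 0.195% higher and 84 or 0.456% lower) were called and 13.9% had an unadjusted p below 0.05. DESeq2 called 138 genes higher and 277 lower, and limma-voom 30 and 30. The pathway's log2 changes ran from -0.96 to 2.48 with a median of 0.07, against 0.01 over all genes. Nfe2l2 had 112 and 109 CPM in topotecan-treated mice, against 86.0 and 95.9 CPM in DMSO-treated mice, higher in both libraries (log2 change 0.28, adjusted p = 0.423).

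Unadjusted p-values below 0.05 came from 4 of the 47 genes (8.51%). Mafg had 98.7 and 83.1 CPM with topotecan, against 60.5 and 60.8 CPM with DMSO (log2 change 0.58, adjusted p = 0.108). Mgst2 had 19.9 and 27.7 CPM with topotecan, against 3.73 and 4.77 CPM with DMSO (2.48, adjusted p = 0.174). Neither gene's libraries overlapped, which adds no support, since both were picked by p-value in the same libraries. Gsr had 64.9 and 52.6 CPM with topotecan, against 17.2 and 48.2 CPM with DMSO (0.84, adjusted p = 0.322), and was called higher without DMSO replicate 2. Tkt had 573 and 386 CPM with topotecan, against 605 and 605 CPM with DMSO (-0.33, adjusted p = 0.321), and was called lower without topotecan replicate 1 (adjusted p = 0.0264). Nqo1 with 39.4 and 20.1 CPM under topotecan and 19.8 and 27.8 CPM under DMSO, and Hmox1 with 58.0 and 57.3 CPM under topotecan and 90.6 and 68.1 CPM under DMSO, were not called. Gstm3 differed more between libraries of a group than between groups, at 1.33 and 37.3 CPM with topotecan and 7.74 and 67.6 CPM with DMSO. The interval lay within 2-fold either way for 25 of the 47 genes. The mTEC markers summed to 17490 to 19190 CPM with topotecan against 21900 to 23000 CPM with DMSO. Tuft markers summed to 908 to 995 CPM with topotecan against 543 to 697 CPM with DMSO, and microfold markers to 996 to 1271 against 646 to 765 CPM. Macrophage sums were 1945 to 1947 against 1568 to 1674 CPM, and thymocyte sums 297 to 323 against 240 to 274 CPM. Fibroblast sums overlapped, at 140 to 1353 CPM with topotecan and 325 to 712 CPM with DMSO. The part of these cells in the members' values was not tested. Of the wider list only Nfe2l3 was called, at 121.8 ± 10.96 CPM with topotecan against 44.7 ± 7.31 CPM with DMSO (SD, n = 2 each; log2 change 1.44, adjusted p = 0.0091).

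Spermidine against PBS gave no call among the 47 over both genotypes (0% of all genes called, 820 or 4.45% with an unadjusted p below 0.05), in WT mice alone (0%, with 709 genes or 3.85% unadjusted) or in Aire-KO mice alone (1 gene or 0.00543%, with 759 or 4.12% unadjusted). Over both genotypes DESeq2 called 1 gene higher and 1 lower, and limma-voom called 0. Nfe2l2 averaged 80.4 ± 2.48 CPM with spermidine and 78.6 ± 7.45 CPM with PBS (SD, n = 4 each, 2 of each genotype). The canonical targets stayed near 0 in log2 change, with Nqo1 at -0.01 (interval -0.47 to 0.44), Hmox1 at 0.05 (-0.34 to 0.45), Srxn1 at -0.01 (-0.39 to 0.36) and Gclc at -0.31 (-0.71 to 0.10). The interval lay within 2-fold either way for 33 of the 47.

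Gsta2 was the only gene of the 47 with an unadjusted p below 0.05 over both genotypes (log2 change -0.62, adjusted p = 0.991). Its values in Aire-KO mice were 11.7 and 18.6 CPM with spermidine and 39.5 and 28.3 CPM with PBS, without overlap (-1.16, adjusted p = 1). In WT mice they were 80.4 and 74.1 CPM with spermidine and 83.0 and 81.5 CPM with PBS (-0.09). The difference of the spermidine effect between Aire-KO and WT mice, tested as an interaction, was called for none of the 47 genes nor any other (0 of 18418; 619, or 3.36%, at an unadjusted p below 0.05; DESeq2 called 1 higher and 2 lower, limma-voom 0 higher and 1 lower). For Gsta2 it was -1.07 (SE 0.476, adjusted p = 1).

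**Figure D5:**
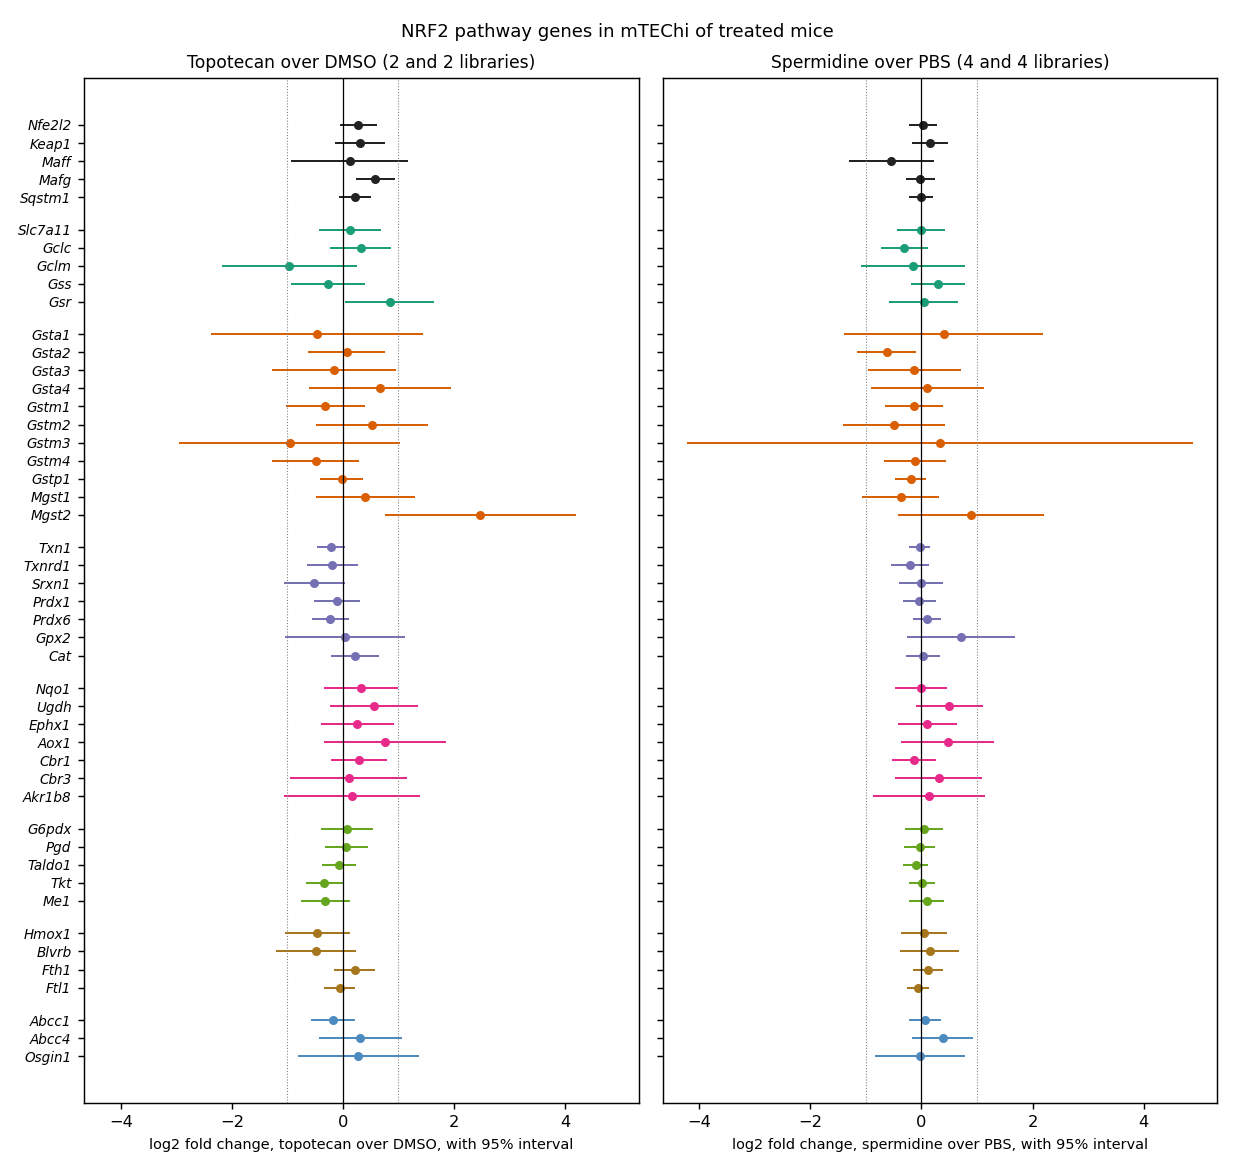
Log2 fold change of each of the 47 genes with its 95% interval derived from the edgeR test. The left panel shows topotecan over DMSO (2 and 2 libraries) and the right panel spermidine over PBS (4 and 4 libraries, 2 of each genotype). Colours mark the roles, from regulators at the top through glutathione synthesis, transferases, thioredoxin and peroxide, quinones and carbonyls, NADPH, heme and iron to export. Dotted lines mark 2-fold changes. No gene was called in either panel; Mgst2 at 2.48 with topotecan is the point farthest from 0, and Gstm3 has the widest interval with spermidine.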

How the data were processed

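mTECs were sorted by flow cytometry after enzymatic digestion and CD45+ depletion, and RNA of 1000 cells was amplified with Smart-seq2 and Nextera XT, without molecular identifiers or strand, per the labels' protocols. For mTEChi the deposited values are raw gene counts, and for Aire-GFP+ cells the authors deposited kallisto estimated counts and TPM per transcript, per the file headers. The submitters' processing notes name STAR, featureCounts and kallisto without versions, TopHat2 2.1.1, SAMtools 1.3.1 and build mm10; how reads matching several genes were treated is not stated in the sources used here. Of 118489 transcripts, 116816 matched GENCODE M21, were summed to 35999 symbols and rounded; the rest held 0.541 to 0.578% of counts. Of 30 samples, 21 were used, and 9 NOD and F1 samples are not analysed here.

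Counts were tested with edgeR 4.0.16 in R 4.3.3 (quasi-likelihood, TMM, filterByExpr, Benjamini-Hochberg over all genes), with all 16 mTEChi libraries in one fit and the 5 Aire-GFP+ libraries in another. The Aire-KO comparison of mTEChi averages the PBS and spermidine contrasts. The biological coefficient of variation was 0.269 and 0.272. Replicates differed by more than counting error (chi-square per degree of freedom 3.05 to 19.7). Alternatives were DESeq2 1.42.0, limma 3.58.1 (voom, and log2(TPM + 1) for Aire-GFP+ cells), library totals, other filters, fits of single experiments, a replicate block, summed families and leaving out each library. Steps were tested on simulated data. Figures were drawn with matplotlib 3.10.9.

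Values per library are given for genes called at a fold of 1.5 or more, up to 10 per direction, and for Nfe2l2, Keap1 and neighbours in role. Members and lists were chosen with earlier results of these data known. Exons of Keap1, Mafg, Sqstm1, Gclm, Gss, G6pdx, Ftl1, Me1, Tkt, Ugdh and Ephx1 overlap other annotated genes, and without strand their reads cannot be told apart there. Promoter sequences are from RefSeq.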

Additional observations from a re-analysis of the deposited data

Results flagged for a closer look

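For 2 genes of the list, after TMM scaling, every Aire-KO library lay below every WT library in mTEChi and above every WT library in Aire-GFP+ mTECs. How many of all genes showed this pattern was not counted. Taldo1, transaldolase of the pentose phosphate pathway, had a log2 change of -0.20 in mTEChi and 0.39 in Aire-GFP+ cells, and the second value changed sign with library totals (-0.0052) and on the TPM scale (-0.12). In mTEChi its nearest libraries almost met, with 181.0 CPM in Aire-KO PBS replicate 2 and 181.4 CPM in WT spermidine replicate 2. Fth1, the ferritin heavy chain, had a log2 change of -0.32 in mTEChi and 0.18 in Aire-GFP+ cells, and neither was called. The second value of Fth1 also changed sign with library totals (-0.22) and on the TPM scale (-0.34, called lower), and its mTEChi value was called lower with library totals (-0.50). For both genes the opposite signs were not kept under these scalings. The difference between the sorts was not tested for either gene.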

How the results depend on the processing

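Of the Aire comparisons, 13 of the 26 genes called in mTEChi and 10 of the 27 called in Aire-GFP+ cells kept their call under every alternative run. In mTEChi no call reversed; 18 of 185 values under other settings and 53 of 208 without 1 library lost the threshold. In Aire-GFP+ cells 18 of 194 lost it and 6 reversed, and 37 of 135 without 1 library lost it. The reversals were Taldo1 (-0.0052) and Abcc1 (-0.0072) with library totals, and Mafg (-0.19), Txn1 (-0.014), Taldo1 (-0.12) and Abcc1 (-0.39) on log2(TPM + 1) values. The counts of called members that moved most, by over 1.5 times under at least 1 setting named, follow. In the Aire comparisons the counts over all genes moved in the same direction. Over all genes in mTEChi, library totals gave 1167 higher and limma-voom 1128 lower, beside 1890 and 2305 in the main fit. With spermidine alone, 1081 of all genes were lower with library totals, 1544 with no filter, 165 with limma-voom and 1198 in that experiment alone. The main fit gave 799. In mTEChi library totals gave 6 higher, limma-voom gave 9 lower, and leaving out 1 library gave 7 to 9 higher and 10 to 14 lower. In Aire-GFP+ cells library totals gave 6 higher, log2 TPM gave 5 higher and 21 lower, and leaving out 1 library gave 8 to 12 higher and 7 to 11 lower. With PBS alone limma-voom gave 1 lower, and leaving out 1 library gave 2 to 5 higher and 0 to 4 lower. With spermidine alone library totals gave 10 lower, no filter 11, limma-voom 2 and that experiment alone 13, and leaving out 1 library gave 2 to 3 higher and 2 to 3 lower. For topotecan, no filter gave 1 higher (Mgst2) and 2 lower (Gstm3 and Tkt), and leaving out 1 library gave 0 to 1 in each direction. For spermidine in Aire-KO mice no filter gave 1 lower (Gsta2). The stricter motif lowered the share of members with a match to 34.1%. In flox against wt cells no member was called in any setting; Srxn1 changed sign with limma-voom (0.020), and without 1 library log2 changes ran from -0.069 to 0.21 for Nfe2l2, -0.14 to 0.18 for Hmox1, -0.01 to 0.29 for Txnrd1 and -0.35 to 0.37 for Srxn1. The cause of these shifts was not tested, and a fit without 1 library also changes filter, scaling and spread.

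Same-numbered libraries did not deviate together (correlations of -0.00841 to 0.0996), so the numbers were not taken to pair samples. With the replicate number as a block, 12 members were higher and 15 lower in Aire-KO mTEChi and 13 higher and 11 lower in Aire-GFP+ cells, and 0 were called for flox, topotecan or spermidine. Depth limits Gclm, Gsta1, Gsta3, Mgst2, Maff, Blvrb, Cbr3 and Akr1b8, whose levels stayed under 30 CPM in all libraries.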
